A study of Mus musculus with 6 samples.

Results

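The 4 Hox gene clusters of the mouse, Hoxa, Hoxb, Hoxc and Hoxd, were examined in ATAC-seq peaks of mouse embryonic stem cells (mESCs). The members were the 39 protein-coding genes named Hoxa, Hoxb, Hoxc or Hoxd plus a number in the GENCODE annotation of mm9, of 22202 coding genes on chromosomes 1 to 19 and X. ATAC-seq marks accessible DNA as the places where the Tn5 transposase inserts its adapters, and each place with many insertions was called as a peak. The cells were haploid mESCs of a mixed genomic background, grown with serum and LIF, and every line carried a doxycycline-inducible Xist transgene (HATX). The 2 deposited peak lists came from HATX WT cells and from Spen KO clone 3, a single clone with a full deletion of Spen, which encodes an RNA-binding repressor. The 6 sample records pair an untreated culture of every line with one given doxycycline at 2 ug/ml over 48 hr. The lists do not state which of these they hold, so no value here is assigned to a doxycycline state. Spen KO clone 2 was not analysed here.

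Hox genes encode homeodomain transcription factors that give cells along the head-to-tail axis their position. The genes of a cluster lie in the order in which they are used along the axis, with the low numbers expressed toward the head and the high numbers toward the tail. In mESCs the clusters are known to be largely silent and covered by Polycomb proteins, and retinoic acid and the Cdx factors are known to switch them on during differentiation.

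The WT list held 22698 peaks and the Spen KO clone 3 list 23656 on the chromosomes used. Each peak carried a value from each of 2 replicates, which the authors' methods call technical. Whether they are the untreated and the treated culture of a line is not stated. The gap between them is therefore not known to be technical spread alone. The score of a peak was the mean of its 2 values. Its percentile is the share of peaks in the same list with a score as low or lower. With 1 list per line no test between the lines was possible, the read depth behind the lists is unknown, and intervals on shares cover counting error only. Neighbouring Hox genes share a locus and are not independent. Of 9 stem cell marker genes 3 had a peak within 1 kb of a start in each list, and Pou5f1 and Nanog had none in either. Markers of other lineages with such a peak numbered 2 of 4 neural genes in each list, 1 of 4 endodermal genes in each list, and in WT only 1 of 5 mesodermal and 1 of 4 fibroblast genes. Counts at this limit, over so few genes, therefore did not separate stem cell markers from those of other lineages. The median distance from a start to the nearest peak was 1.07 kb (WT) and 1.10 kb (Spen KO clone 3) for stem cell markers. It was 1.30 and 0.690 kb for neural, 16.8 and 54.4 kb for mesodermal, 49.6 and 31.8 kb for endodermal, and 66.6 and 67.3 kb for fibroblast genes. By distance, only the neural genes were thus like the stem cell markers.

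Accessible sites in the clusters were few. By their midpoints, 7 WT peaks and 4 Spen KO clone 3 peaks lay between the first and the last base of a cluster, over 492 kb in all. With a stricter limit on agreement between replicates (an IDR of at most 0.01, explained below) the counts were 1 and 2, so the order of the lists turned. With peaks at or above the median score they were 1 and 0. The Hoxa cluster (chr6:52105366-52210874, 11 Hox genes) held 1 peak in each list. The Hoxb cluster (chr11:96055630-96229570, 10 genes) held none in WT and 1 in Spen KO clone 3. The Hoxc cluster (chr15:102751534-102867274, 9 genes) held 3 WT peaks and 1 Spen KO clone 3 peak, and so did the Hoxd cluster (chr2:74506367-74603200, 9 genes). The Hoxc13 peak was counted in the flank, because the start of Hoxc13 is the first base of the cluster and the peak is centred just upstream of it.

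The sequences under 3 of these sites are shown because they carry results that follow. They are the starts of Hoxc13 and Hoxd11, accessible in both lists, and the intergenic site of the Hoxc cluster. Each is an exon-free stretch of at most 300 bases within the peak, read from NCBIM37 (mm9), on the plus strand. CpG dinucleotides are in capitals.
Hoxc13 start, chr15:102751252-102751533: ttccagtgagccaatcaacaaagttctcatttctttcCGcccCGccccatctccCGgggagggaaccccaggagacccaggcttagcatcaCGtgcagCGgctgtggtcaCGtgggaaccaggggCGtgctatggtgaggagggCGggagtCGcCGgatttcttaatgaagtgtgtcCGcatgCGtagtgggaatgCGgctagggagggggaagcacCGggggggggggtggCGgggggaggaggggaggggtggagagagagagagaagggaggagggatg
Hoxc13 to Hoxc12, chr15:102762197-102762496: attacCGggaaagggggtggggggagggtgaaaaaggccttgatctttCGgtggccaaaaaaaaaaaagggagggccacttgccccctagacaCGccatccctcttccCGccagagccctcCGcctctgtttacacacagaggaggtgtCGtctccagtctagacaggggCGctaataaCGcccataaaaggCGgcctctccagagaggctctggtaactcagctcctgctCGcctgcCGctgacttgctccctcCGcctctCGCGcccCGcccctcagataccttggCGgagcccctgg
Hoxd11 start, chr2:74519756-74520055: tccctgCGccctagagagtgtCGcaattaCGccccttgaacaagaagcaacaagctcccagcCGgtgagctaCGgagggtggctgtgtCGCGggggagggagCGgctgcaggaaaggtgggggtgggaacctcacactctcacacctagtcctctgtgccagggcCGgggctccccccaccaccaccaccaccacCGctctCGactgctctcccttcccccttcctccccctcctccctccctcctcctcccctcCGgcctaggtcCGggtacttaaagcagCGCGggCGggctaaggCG

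The Hoxd11 stretch held 17 CpGs in its 300 bases, the Hoxc13 to Hoxc12 stretch 16 in as many, and the Hoxc13 stretch 15 in 282 bases. The 3 sites were thus close in CpG number.

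**Figure D1:**
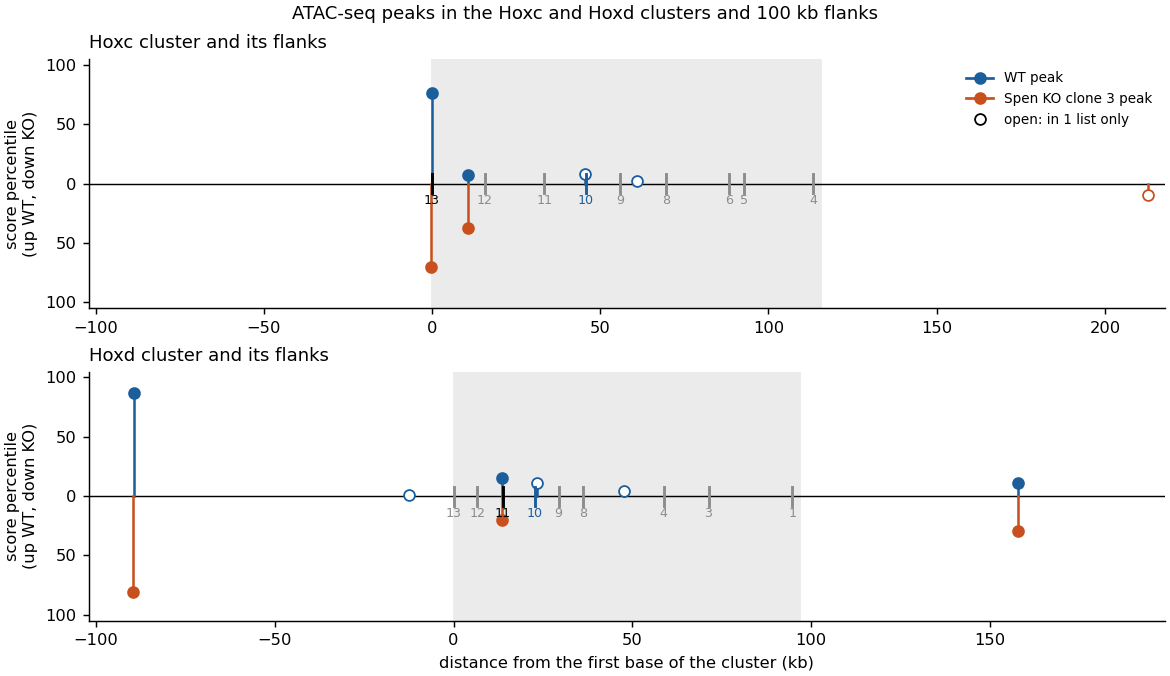
Peaks of the Hoxc and Hoxd clusters and their 100 kb flanks, plotted by distance from the first base of the cluster (kb, x axis) and by score percentile (y axis, WT upward, Spen KO clone 3 downward). Grey shading is the cluster, ticks with numbers are Hox gene starts (black with a peak in both lists, blue in WT only, grey in neither), and open circles are peaks of 1 list only: most ticks are grey, and the open circles inside the shading are all WT peaks.

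At gene starts, 5 of the 39 Hox genes had a peak within 1 kb in WT (12.8%, 95% Wilson interval 5.60 to 26.7%) and 3 in Spen KO clone 3 (7.69%, 2.65 to 20.3%). Over all coding genes the shares were 44.7% (WT) and 40.9% (Spen KO clone 3), above both intervals. Hoxc13 and Hoxd11 were among the 3 with a peak in both lists. Hoxc10 and Hoxd10 had one in WT only (5.13%, 1.42 to 16.9%), and no Hox gene had one in Spen KO clone 3 only (0%, up to 8.97%). Over all coding genes these shares were 8.17% and 4.36%, inside both intervals. The other 34 genes had a peak in neither list, which at this unknown depth means that no accessible start was detectable. The farthest start within the limit was that of Hoxd10, 633 bp from its peak, and the nearest one beyond it in WT was Hoxb13 at 3.94 kb.

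The 34 genes without a peak at a start included 10 of the 11 genes of the Hoxa cluster, among them Hoxa4 to Hoxa7, Hoxa9, Hoxa10, Hoxa11 and Hoxa13. All genes of the Hoxb cluster, Hoxb1 to Hoxb9 and Hoxb13, belonged to them. In the Hoxc cluster they were Hoxc4, Hoxc5, Hoxc6, Hoxc8, Hoxc9, Hoxc11 and Hoxc12, and in the Hoxd cluster Hoxd1, Hoxd3, Hoxd4, Hoxd8, Hoxd9, Hoxd12 and Hoxd13.

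By position along the body axis, none of the 15 central genes (numbers 4 to 8) had a peak in either list, which allows a share of up to 20.4%. Among the 16 posterior genes (9 to 13), which pattern the trunk, limbs and tail end, 4 had a peak in WT (25.0%, 10.2 to 49.5%) and 2 in Spen KO clone 3 (12.5%, 3.50 to 36.0%). Of the 8 anterior genes (1 to 3), which pattern the hindbrain and neck, 1 had one (12.5%, 2.24 to 47.1%, in each list). The intervals of the 3 groups overlapped, so no difference among them was shown. Among paralogues, the genes of the same number in different clusters, Hoxc10 and Hoxd10 were alike, with a peak in WT only, while Hoxa10 had none. Most paralogue groups had no peak in any member. In groups 13 and 11 the members differed: Hoxc13 had a peak in both lists while Hoxa13, Hoxb13 and Hoxd13 had none, and Hoxd11 did while Hoxa11 and Hoxc11 did not.

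Starts of Hox genes were often far from any peak. Over all 39 Hox genes the median distance from a start to the nearest WT peak was 31.9 kb, and over all coding genes it was 4.45 kb. In Spen KO clone 3 the medians were 32.8 kb for Hox genes and 7.55 kb for all coding genes. The farthest from a WT peak was Hoxb1, a hindbrain gene, at 175 kb, and it was 53.9 kb from a Spen KO clone 3 peak. The farthest from a Spen KO clone 3 peak was Hoxc4, at 87.0 kb. In WT the Hoxb cluster stood apart from the others, with a median of 107 kb against 45.7 kb in Hoxa, 8.69 kb in Hoxc and 5.97 kb in Hoxd. In Spen KO clone 3 the median of Hoxb was 28.3 kb, that of Hoxa was again 45.7 kb, and those of Hoxc and Hoxd were 44.5 and 15.8 kb. The single Spen KO clone 3 peak inside the Hoxb cluster and the WT-only peaks of Hoxc and Hoxd set these differences between the lists.

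Stretches without a peak spanned several Hox genes in each cluster. In WT one stretch of 432 kb held all 10 Hoxb genes and was longer than 94.7% of all stretches between neighbouring peaks, whose median was 46.1 kb. In Spen KO clone 3 the stretch with the most Hoxb genes was 181 kb and held 6 of them. At Hoxa a stretch of 147 kb in each list held 10 genes. At Hoxc the stretch with the most Hox genes held 4 in WT (164 kb, Hoxc4 to Hoxc8) and 8 in Spen KO clone 3 (202 kb, Hoxc4 to Hoxc12). At Hoxd it held 3 in WT (109 kb, Hoxd1, Hoxd3 and Hoxd4) and 6 in Spen KO clone 3 (144 kb, Hoxd1 to Hoxd10). The Hoxa stretch was thus alike in both lists, and the other 3 differed. Apart from the WT stretch at Hoxb, these stretches were less extreme in length, down to that of Hoxd in WT, which was longer than 73.2% of all.

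The clusters were dense in genes. The clusters held 1.42 WT peaks and 0.813 Spen KO clone 3 peaks per 100 kb, an order that turned at the stricter IDR limit. The flanks held 1.00 per 100 kb in each list. Windows of 100 kb averaged 0.860 WT and 0.896 Spen KO clone 3 peaks over the genome. Each cluster, however, held the starts of 9 to 12 coding genes, and the 123 windows in which at least 8 coding genes start averaged 4.32 WT and 3.66 Spen KO clone 3 peaks. Since Hoxb and Hoxc are longer than a window and have fewer starts per 100 kb, the 809 windows with at least 5 starts are given too, at 2.99 WT and 2.65 Spen KO clone 3 peaks. Because only uniquely mapped reads were kept, the share of 31-base words that occur once in the genome was also counted. It was 96.9% in the clusters, 94.0% in Hoxb alone, and 92.2% in the flanks, and within 500 bp of the start it was 99.2% for Hox genes and 90.2% for other coding genes. The lowest value at a Hox start was 89.6%, at Hoxc8.

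Hox starts were not poor in CpG. CpG islands, stretches rich in C and G with many CpGs, cover most constitutively active promoters and those of many developmental genes. Within 500 bp of the start the observed to expected CpG ratio of Hox genes had a median of 0.640, from 0.244 at Hoxd3 to 0.996 at Hoxa5, and over all coding genes the median was 0.513. A start was called CpG-rich at a ratio of at least 0.6 and a GC content of at least 50%, which held for 22 Hox genes (56.4%) and for 42.2% of all coding genes. Of those 22 Hox genes 3 had a peak in each list (13.6%, 4.75 to 33.3%), Hoxc13 and Hoxd11 among them. Among all 9380 coding genes with a CpG-rich start the shares were 72.7% (WT) and 65.9% (Spen KO clone 3). Hoxa5 (ratio 0.996), Hoxa13 (0.950), Hoxa4 (0.917) and Hoxd13 (0.905) had the highest ratios at the 1 start used per gene, and none of them had a peak in either list. With the most CpG-rich start of each gene, Hoxd8 (1.00, no peak in either list) and Hoxd11 (0.996, a peak in both) were as high as Hoxa5.

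**Figure D2:**
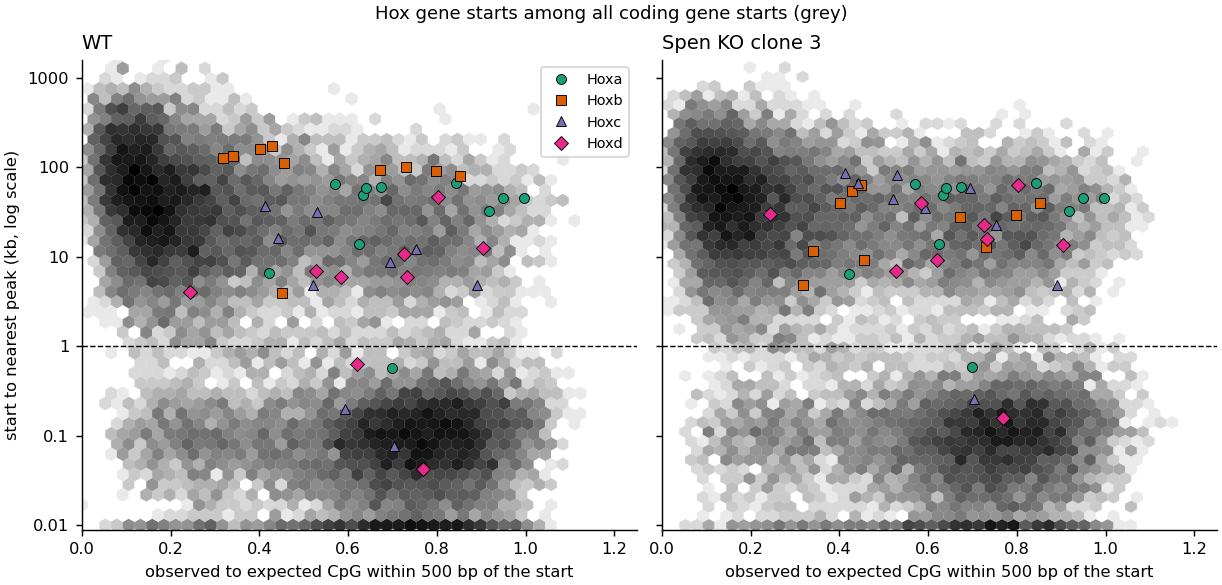
Observed to expected CpG ratio within 500 bp of a gene's start (x axis) against the distance from its nearest start to the nearest peak (kb, log scale, distances under 0.01 kb drawn at 0.01), in WT (left) and Spen KO clone 3 (right). Grey hexagons are all coding genes, darker where there are more, coloured symbols are the Hox genes by cluster, and the dashed line is 1 kb: most CpG-rich genes lie below the line, and 34 of 39 Hox genes lie above it in both panels.

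Other homeobox genes more often had a peak at a start than Hox genes did in these lists. Of 124 developmental homeobox and paired box genes outside the clusters, such as the Lhx and Pou3f factors, 41 had a peak at a start in WT and 41 in Spen KO clone 3 (33.1%, 25.4 to 41.7% in each). Among the 87 with a CpG-rich start the share was 36.8% (27.4 to 47.3%) in each list. The intervals overlapped those of the Hox genes slightly, 25.4 to 41.7% against 5.60 to 26.7% in WT, and in Spen KO clone 3 they did not overlap. For CpG-rich starts they overlapped in both lists, 27.4 to 47.3% against 4.75 to 33.3%. The all-gene share of 44.7% in WT lay above the interval of the other homeobox genes, and that of 40.9% in Spen KO clone 3 lay inside it. Genes with a peak in both lists numbered 26 of the 124, and 15 had one in each list alone. The scores of those peaks were lower than at other starts, with a median percentile of 46.4 in WT and 26.1 in Spen KO clone 3, against 63.1 and 60.7 over all coding genes with a peak.

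Genes that act on or with Hox genes were counted in the same way. Of 9 cofactors, the TALE homeobox proteins that bind DNA together with Hox proteins, 5 had a peak in WT (26.7 to 81.1%) and 6 in Spen KO clone 3 (35.4 to 87.9%). Pbx4, Meis3 and Pknox1 were among those with one in both. Such a peak was found for Pbx3 in WT only, and for Meis2 and Pknox2 in Spen KO clone 3 only. Of 13 Polycomb core genes 11 had a peak in WT (57.8 to 95.7%) and 8 in Spen KO clone 3 (35.5 to 82.3%), among them the methyltransferase genes Ezh1 and Ezh2 and the Ezh2 partner Suz12 in both, with Ring1, Cbx2 and Pcgf6 in WT only. Of 14 upstream regulators 5 had one in WT (16.3 to 61.2%) and 3 in Spen KO clone 3 (7.57 to 47.6%). The intervals of the 3 lists overlapped, and of these 6 intervals only that of the Polycomb genes in WT did not hold the share of all coding genes. Cdx4, the retinoic acid receptor gene Rarb and the insulator protein gene Ctcf had a peak in both lists, and the retinoid receptor genes Rxrb and Rxrg in WT only. Cdx1, Cdx2, Rara and Rarg had none. With 1 list per line, none of these differences between lists was tested, and the share of coding genes with a peak in WT and none in Spen KO clone 3 was 8.17%, against 4.36% the other way.

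**Figure D3:**
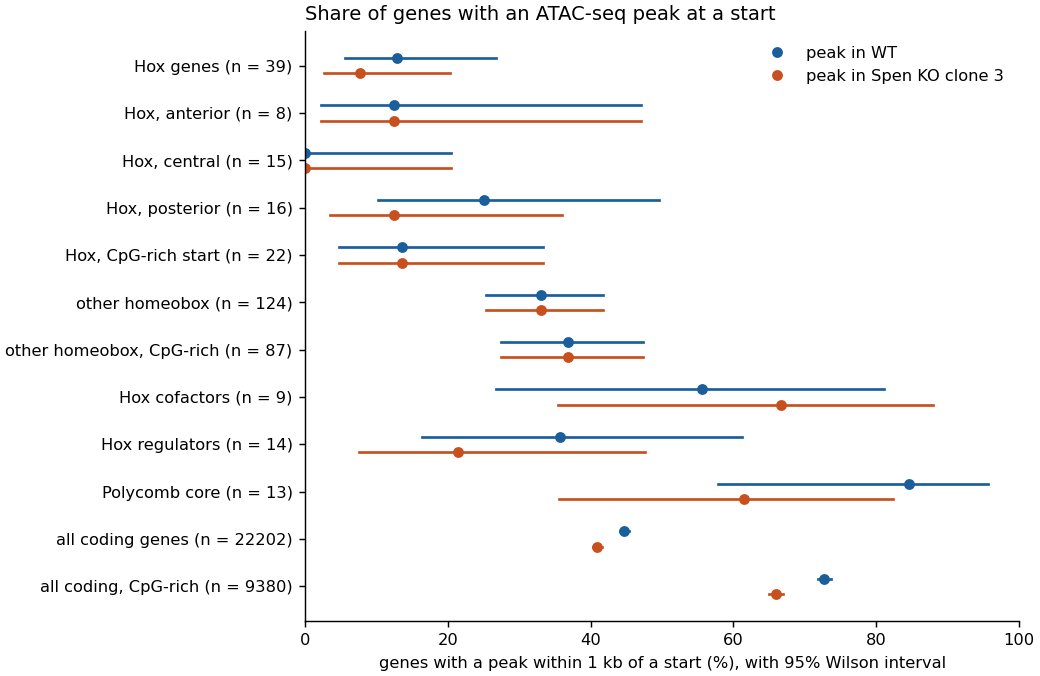
Share of genes with a peak within 1 kb of a start (%, x axis) in WT (blue) and Spen KO clone 3 (orange) for Hox genes, their groups and the other gene lists, with 95% Wilson intervals as lines. Hox genes lie at 12.8 and 7.69%, other homeobox genes at 33.1% and all coding genes at 44.7 and 40.9%.

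Hoxc13, which acts in hair and nail formation, had the highest-ranked peak at a Hox start in both lists. In WT it was 899 bp wide (chr15:102751009-102751907), the widest at any Hox start, and was centred 76 bp upstream of the start. Its percentile was 76.2, from 89.2 in one replicate and 42.1 in the other (IDR 3.21e-04). The IDR is the estimated rate at which a peak of that rank would not recur between replicates, and the authors kept peaks under 0.05. In Spen KO clone 3 it was 593 bp wide and stood at 70.2 (56.5 and 78.2, IDR 2.25e-04). The replicate ranges of the 2 lists overlapped. The coding gene Gm17649 starts beneath the same peak and runs the opposite way, so the peak cannot be assigned to either gene.

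Hoxd11, a limb and vertebral patterning gene, had a low-ranked peak in both lists. The WT peak (chr2:74519746-74520282, 537 bp) was centred 42 bp upstream of a start, in an intron of a longer Hoxd11 transcript, and stood at the percentile 15.5 (25.3 and 10.4 by replicate). The Spen KO clone 3 peak (462 bp) stood at 19.9 (25.4 and 18.0). The IDR was close to the limit in WT, at 0.0463, and 0.0334 in Spen KO clone 3. By the mean of the replicates, the shift from WT to Spen KO clone 3 was -5.99 points at Hoxc13 and 4.36 at Hoxd11. No match between the replicates of the 2 lists is stated, so only their ranges can be compared. They overlapped at Hoxc13, with 42.1 to 89.2 in WT and 56.5 to 78.2 in Spen KO clone 3. At Hoxd11 they also overlapped, with 10.4 to 25.3 in WT and 18.0 to 25.4 in Spen KO clone 3. Over the 7596 shared peaks at coding starts the median shift was -2.73 points, with quartiles of -12.6 and 3.26.

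A further peak found in both lists was intergenic. It lay between Hoxc13 and Hoxc12, 4.84 kb upstream of Hoxc12, at chr15:102762046-102762566 in WT and chr15:102762142-102762552 in Spen KO clone 3. In WT it was among the lowest peaks, at the percentile 7.64 (11.3 and 5.78 by replicate). In Spen KO clone 3 it stood at 37.4 (48.8 and 30.8), so that both replicate values of that list were above both of WT. The shift of 29.8 points was the largest among the shared Hox peaks, and no test was possible on 1 site and technical replicates.

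**Figure D4:**
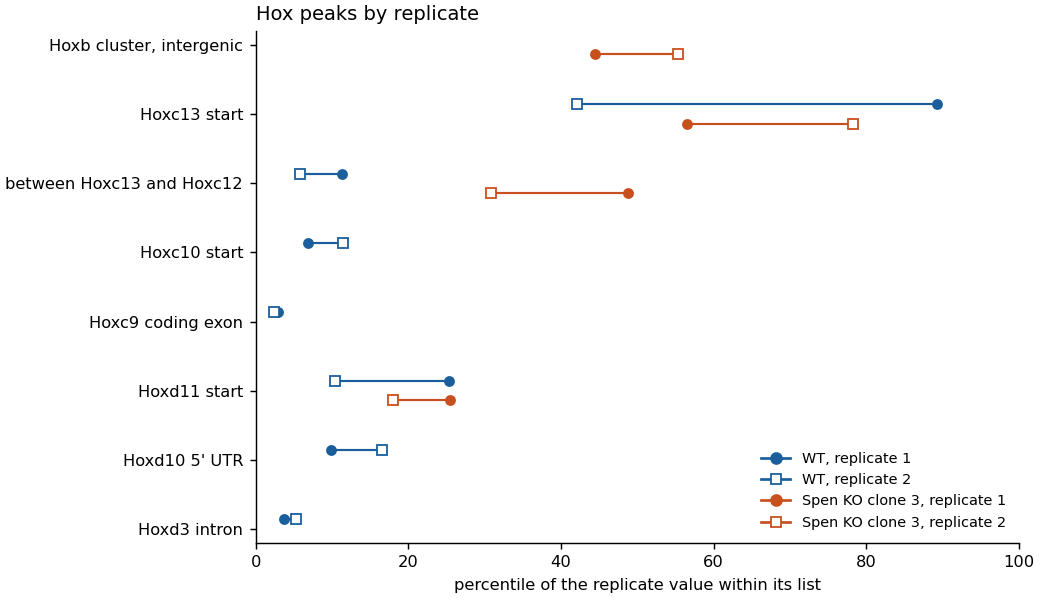
Percentile of each replicate's value within its own list (x axis) for 8 sites inside a cluster or at a Hox start, WT in blue and Spen KO clone 3 in orange, with the first replicate as a filled circle and the second as an open square. The replicates overlap between lists at Hoxc13 and Hoxd11, and lie apart at the site between Hoxc13 and Hoxc12.

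Peaks in the WT list only numbered 4 of the 7 in the clusters (57.1%, 25.0 to 84.2%), against 25.7% of all WT peaks. At Hoxc10 the peak was 347 bp wide and was centred upstream of the start, at the percentile 8.36. At Hoxd10 (chr2:74529582-74529978, 397 bp) it lay in the 5′ UTR, in the first exon, at 11.3. The others lay in a coding exon of Hoxc9 (chr15:102812201-102812526, 326 bp) at 2.25, and at the start of the non-coding transcript 1700109F18Rik in an intron of Hoxd3 (chr2:74553898-74554234, 337 bp) at 3.94. All 4 thus stood among the lowest-scoring peaks of the list, with IDR values from 0.0246 to 0.0452. Among the 2269 WT peaks with a percentile of up to 10, 74.2% were in the WT list only, and from 10 to 20 it was 53.5%. Whether the absence of these peaks from the Spen KO clone 3 list goes beyond what their low scores bring was not tested.

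The Spen KO clone 3 list had 1 peak of its own in the clusters, 1 of 4 (25.0%, 4.56 to 69.9%), against 28.6% of all its peaks. This peak lay in the Hoxb cluster, was 508 bp wide and was intergenic. It stood at the percentile 49.8 (44.4 and 55.3 by replicate, IDR 0.00270), well above the WT-only peaks of the clusters. The nearest WT peak was 121 kb away. Of the Spen KO clone 3 peaks with a percentile from 40 to 50, 31.4% were in that list only. With both lists limited to peaks at an IDR of at most 0.01, 1 cluster peak was in WT only and 2 in Spen KO clone 3 only. Of these, only the Hoxb peak had no partner in the full lists. The others were shared there, and the partner of each had an IDR above 0.01.

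**Figure D5:**
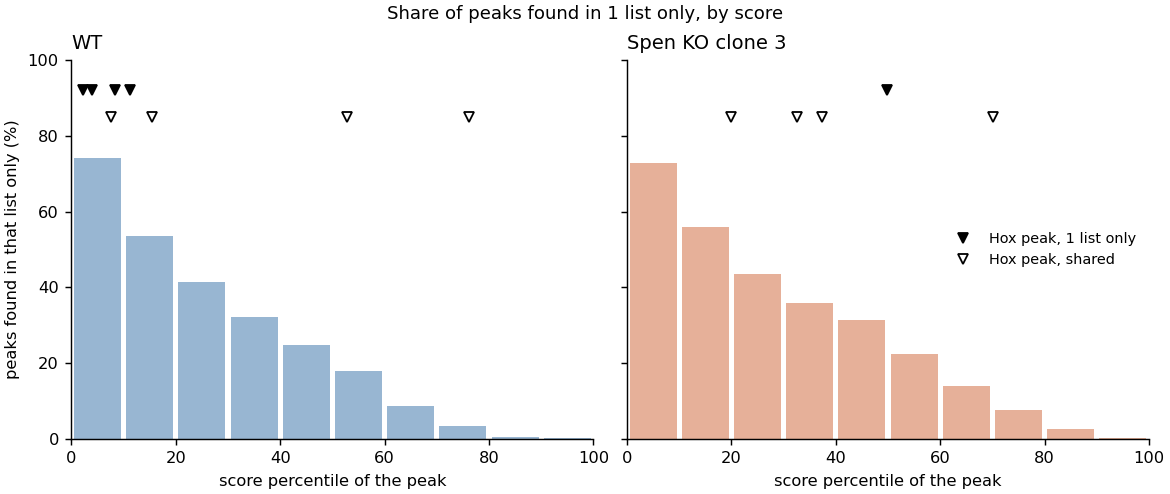
Share of peaks found in 1 list only (%, y axis) by score percentile in bins of 10 (x axis), for WT (left) and Spen KO clone 3 (right), with triangles at the percentiles of the Hox peaks (filled where in 1 list only, open where shared). The 4 filled WT triangles stand at 2.25 to 11.3, where most peaks are in 1 list only, and the filled Spen KO clone 3 triangle stands at 49.8.

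The peaks of the clusters were narrow and low in rank as a group, which leaves out the Hoxc13 peak, centred just outside. In WT their median width was 397 bp, from 326 to 537 bp, and that of all peaks was 546 bp. In Spen KO clone 3 it was 436 bp, from 374 to 508 bp, against 526 bp for all. Peaks at coding starts had medians of 642 bp (WT) and 611 bp (Spen KO clone 3). Peaks farther than 1 kb from a coding start were closer in width to the cluster peaks, at 486 and 482 bp. The median percentiles of the cluster peaks were 8.36 (WT) and 35.0 (Spen KO clone 3). Those of peaks at all coding starts were 61.4 and 59.0, and those of peaks farther than 1 kb from a coding start 42.1 and 45.8. Of the cluster peaks 4 of 7 in WT and 2 of 4 in Spen KO clone 3 lay at a coding start. The order of the lists turned at an IDR of at most 0.01, which left 1 WT peak at 29.8 and 2 Spen KO clone 3 peaks with a median of 13. The observed to expected CpG ratio over the peaks had a median of 0.703 in WT and 0.572 in Spen KO clone 3, between the 0.460 and 0.435 of all peaks and the 0.761 and 0.755 of peaks at coding starts.

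Short sequence motifs were counted on both strands in the 300 bp around each midpoint. The nuclear receptor element AGGTCA, which retinoic acid receptors bind in pairs, was in 2 of 7 WT cluster peaks and 0 of 4 in Spen KO clone 3, against 15.5% of all peaks in each list. The WT peaks with it were those at Hoxd10 and between Hoxc13 and Hoxc12. At the latter site the match also lies inside the Spen KO clone 3 peak, but outside the 300 bp around its midpoint, so the lists do not differ in sequence there. The core of the CTCF motif, searched as CAGGGGGC, CAGGTGGC, CAGAGGGC, CAGATGGC and the same 4 with T as the first base, was in 2 of 7 WT cluster peaks and 1 of 4 in Spen KO clone 3, the site between Hoxc13 and Hoxc12 in each case included. Of all peaks, 17.4% in WT and 17.2% in Spen KO clone 3 held it. The Hox-Pbx motif TGATNNAT (4.40% of all peaks in WT, 4.80% in Spen KO clone 3) and the octamer ATGCAAAT (3.30 and 3.34%) were in no cluster peak. With so few peaks these counts are descriptions, and a match is not a bound site.

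The 100 kb flanks held 8 peaks in each list, 2 of them in that list only. That is 25.0% in each, near the 25.7% of all WT peaks and the 28.6% of all Spen KO clone 3 peaks. Of 11 listed coding neighbours of the clusters, 6 had a peak within 1 kb of a start in WT and 7 in Spen KO clone 3. Over all coding genes the shares were 44.7% and 40.9%. At Hoxd, the start of Lnp, an endoplasmic reticulum gene, carried peaks at the percentiles 86.8 in WT and 81.2 in Spen KO clone 3, and that of the mitochondrial gene Mtx2 on the other side carried peaks at 11.0 and 29.0. At Hoxb the start of Calcoco2, an autophagy receptor gene, carried peaks at 13.7 and 30.6. A further shared peak stood 9.16 kb upstream of Ttll6 at 59.1 in WT and 73.0 in Spen KO clone 3. The 2 flank peaks of the Spen KO clone 3 list alone lay 2.99 kb upstream of Ttll6 at 11.3 and 23.9 kb from the start of the DNA repair gene Smug1 at 9.93. Farther out than 100 kb, the starts of Hibadh, Calcoco1 and Smug1 had a peak in both lists and that of Skap2 in Spen KO clone 3 only. Skap1 and Ttll6 had none within 1 kb in either list.

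The even-skipped homeobox genes Evx1 and Evx2, which end the Hoxa and Hoxd clusters on the posterior side, had no peak within 1 kb of a start. A shared peak lay 7.26 kb upstream of Evx1, at the percentiles 29.0 (WT) and 13 (Spen KO clone 3). A WT-only peak in a coding exon of Evx2 stood at 0.560. The last WT-only flank peak lay 3.94 kb upstream of Hoxb13 (chr11:96051399-96051986) at 46.7, and no Spen KO clone 3 peak was within 59.1 kb of it. For non-coding genes the share over the genome is not given here, so the next counts are not read as low or high. Of the 25 non-coding genes inside the clusters 3 had a WT peak within 1 kb of a start and 1 a Spen KO clone 3 peak. Gm20398 in the Hoxc cluster and 1700109F18Rik in the Hoxd cluster had one in WT only. Mir10a, Mir10b, Mir196a-1, Mir196a-2, Mir196b and Mir615, the miRNA genes of the clusters, had no peak within 1 kb in either list.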

How the data were processed

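Per the authors' methods, CutAdapt removed adapters, Bowtie2 aligned the reads to mm9, Picard took out duplicates, and only uniquely aligned proper pairs entered peak calling. MACS2 ran without a shifting model and kept peaks to a q-value of 0.01. Peaks of 2 technical replicates with an IDR under 0.05 formed 1 list per line. For each peak the authors deposited start, end, length, 2 replicate values and the IDR. Their scale is not given in the sources used here, so the values served only as ranks within a list. Length equals end minus start plus 1, so coordinates count from 1. The authors also tested differential peaks on reads, which were not used here.

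Peaks on chromosomes 1 to 19 and X were compared in Python 3 with numpy and pandas. Peaks were shared when they overlapped by at least 1 bp. A gene had a peak when a peak's midpoint lay within 1 kb of the start of any coding transcript (GENCODE vM1). Scripts were tested on simulated peaks. Named were all genes with a peak in 1 list only, the highest, lowest, widest and most shifted Hox start peaks, Hox genes without a peak, and listed neighbours with a peak. Some items are not reported here. The members and lists were chosen with earlier results of these data known.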

Additional observations from a re-analysis of the deposited data

How the results depend on the processing

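The order of the shares, Hox genes below all coding genes, was the same under every alternative for the definition of a CpG-rich start, which was chosen after seeing the data. Most Hox peaks rank low, so counts depended on the score limit. At an IDR of at most 0.01, 2 WT and 1 Spen KO clone 3 Hox genes had a peak, the clusters held 1 and 2 peaks, and the flanks held 4 and 3. In the clusters 1 peak was then in WT only and 2 in Spen KO clone 3 only, so that the order of the lists turned. Only the Hoxb peak among these had no partner in the full lists. The median percentiles of cluster peaks were 29.8 and 13, also in the opposite order. No shared peak remained inside the clusters for a rank shift, while the Hoxc13 peak, counted in the flank, stayed shared. With peaks at or above the median score, 2 WT and 1 Spen KO clone 3 genes had a peak, the clusters held 1 and 0 peaks (1 in WT only, 0 in Spen KO clone 3 only) and the flanks 3 and 3. With a limit of 500 bp, 3 WT genes had a peak. Flanks of 50 kb held 4 and 2 peaks and flanks of 200 kb 23 and 22. Counting peaks by any base inside a cluster gave median percentiles of 9.85 and 37.4, since the Hoxc13 peak then entered. Ranking by 1 replicate gave 9.88 to 10.4 in WT, 35.6 to 36.9 in Spen KO clone 3, and a median rank shift of 0.0818 to 7.60. That shift sets the replicates of the 2 lists side by side in their listed order, although no match between them is stated. Counts could not be recomputed without a replicate, because the lists already combine both. No paired analysis was possible because the results come from no test. Lists of equal length, other choices of start and other overlaps moved no count by over 1.5 times. The depth is unknown, so a gene without a peak is one in which none was detectable.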

Other observations

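Every stretch between neighbouring peaks was ranked by how many CpG-rich starts of coding genes it held, a ranking chosen after seeing the data. In both lists the stretch with the most, 9, was a stretch of 147 kb over the Hoxa cluster, with Hoxa4, Hoxa5, Hoxa6, Hoxa7, Hoxa9, Hoxa11, Hoxa13 and others. The next in WT held 7 such starts in 510 kb around Disc1 and Egln1, and the next in Spen KO clone 3 held 7 in 319 kb around Git2 and Tchp. The WT stretch of 432 kb over the Hoxb cluster held 4, as did several others.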
